A study of Mus musculus with 5 samples.

Results

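Cardiac genes of lipid droplets and triglyceride turnover were described on 5 arrays of mouse heart RNA. Of the 22180 genes that the table named through a probe set with exactly 1 symbol, 10 were taken: the droplet coat genes Plin2, Plin4 and Plin5, the lipase genes Pnpla2, Lipe and Mgll, the lipase co-activator gene Abhd5, the lipase inhibitor gene G0s2, and the synthase genes Dgat1 and Dgat2. Each gene was read from its brightest such probe set over the 5 arrays, a probe set being the group of probes that report a transcript. There were 3 arrays of wild type hearts (replicates 3, 4 and 5) and 2 of Akita hearts (replicates 1 and 3). All hearts came from male mice aged 12 weeks on the C57BL/6 background. Akita mice carry a mutant Ins2 gene, given as Ins2+/- in the study's design, and serve as a model of type 1 diabetes. The sources used here do not say which parts of the heart were taken, nor whether the arrays stand for different animals. The p-values below therefore measure only the spread between these samples, part of which may be technical.

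Heart muscle keeps a small pool of triglyceride in droplets and burns fatty acids released from it. DGAT enzymes add the last fatty acid to make triglyceride, perilipins coat the droplet, and adipose triglyceride lipase, hormone-sensitive lipase and monoglyceride lipase remove the fatty acids in turn. Insulin restrains this breakdown in fat tissue, and fatty acids freed by adipose triglyceride lipase also act as ligands of PPAR-alpha, a nuclear receptor that turns on genes of fatty acid use, several perilipin genes among them. Diabetic hearts are known for taking up more fatty acid and for storing more triglyceride.

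None of the 10 genes passed the test of Akita against wild type hearts. In the values as deposited 4 lay higher in Akita (Plin2, Plin5, Lipe and Mgll) and 6 lay lower (Plin4, Pnpla2, Abhd5, G0s2, Dgat1 and Dgat2), with log2 differences from -0.33 to 0.31. By limma with Benjamini-Hochberg adjustment over the 15528 genes tested, 0 of the 10 passed an adjusted p of 0.05, where 0.328% of all genes tested did. The adjusted p ran from 0.377 to 0.765. At an unadjusted p under 0.05 the count was also 0 of 10, against 13.6% of all genes. That count was 4 of 10 with an intensity trend and robust prior (14.7% of all genes) and 3 of 10 with quantile normalization again (13.1%). The 95% intervals of the 10 differences together reached from -0.92 to 0.66 on the log2 scale, that is from 0.529-fold to 1.58-fold, so a larger difference lay outside the interval of each gene.

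**Figure D1:**
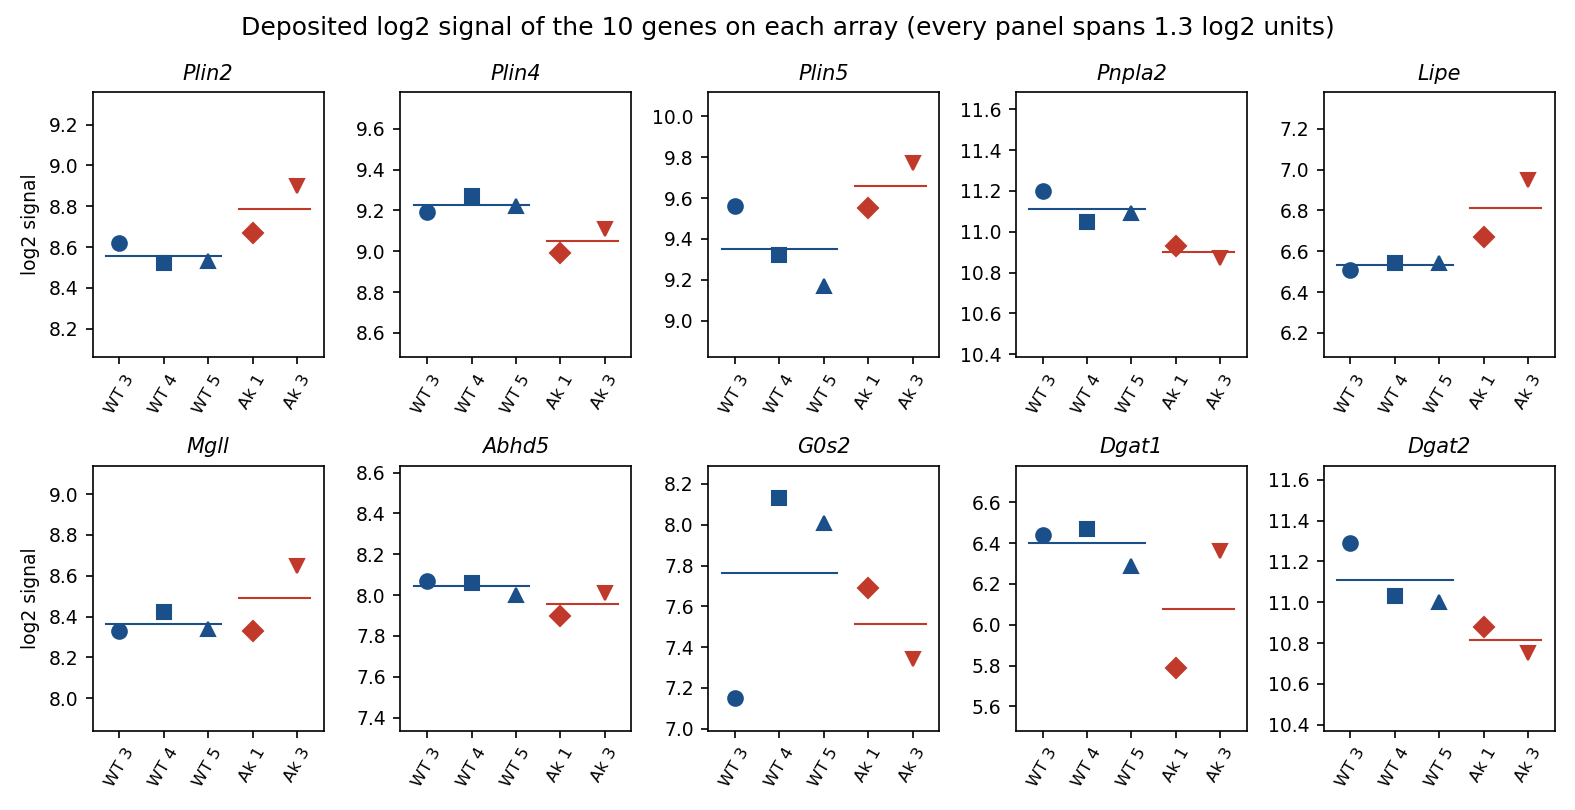
Deposited log2 signal (vertical axis) of each gene on the 3 wild type arrays (WT, blue) and the 2 Akita arrays (Ak, red); lines are group means. Both Akita arrays lie outside the wild type range for Plin2, Plin4, Pnpla2, Lipe and Dgat2, and wild type replicate 3 stands apart for G0s2 at 7.15.

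In 5 of the 10 genes the values of the Akita and wild type arrays did not overlap, with Akita higher in 2 and lower in 3. Over all genes tested this was so in 29.7%, with Akita higher in 9.89% and lower in 19.9%. The median difference over the 10 genes was -0.13 against -0.032 over all genes tested. The all-gene median depended on signal, at -0.0033 with no filter and -0.072 over genes above the 50th percentile of mean signal. The median size of the difference regardless of direction was 0.24 for the 10 genes against 0.14 for all genes tested. All 10 genes passed the filter on dim signal, and their mean signals lay between the 64.5th and the 99.1st percentile of all genes.

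**Figure D2:**
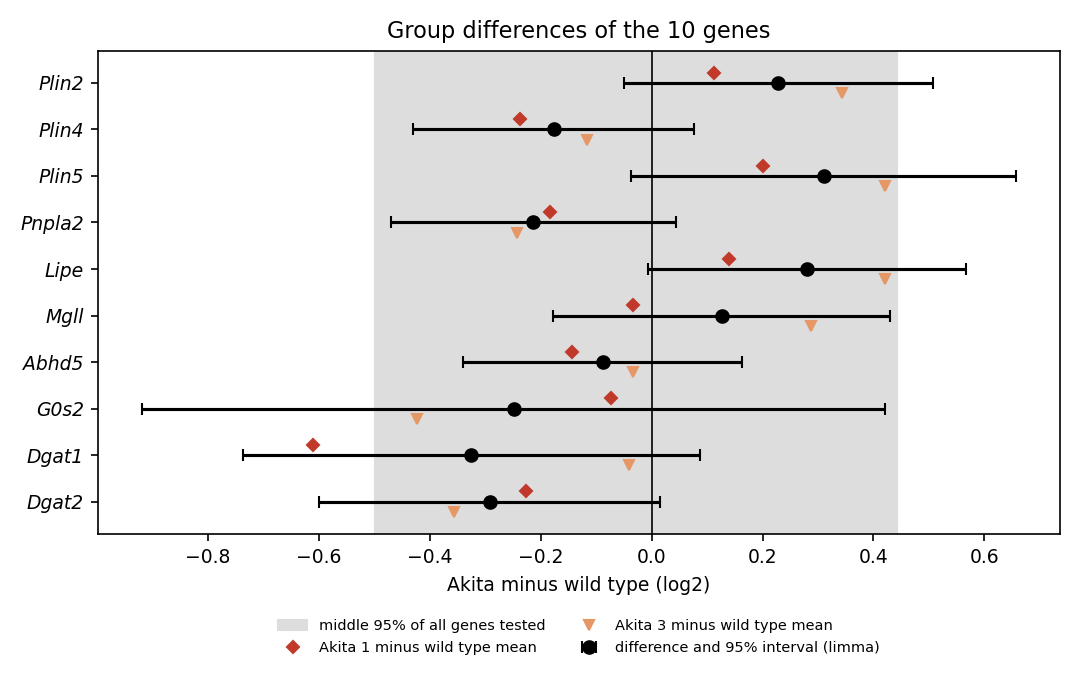
Akita minus wild type in log2 units for each gene (black points, with 95% intervals from limma), with each Akita array minus the wild type mean (coloured points) and the middle 95% of the differences of all genes tested (grey, -0.50 to 0.44). Every interval includes 0, and the point estimates all lie within the grey band.

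Among the droplet coats, Plin5 and Plin2 lay higher and Plin4 lower. Plin5, which is typical of tissues that burn fat and ties droplets to mitochondria, stood at log2 9.56, 9.32 and 9.17 in wild type replicates 3, 4 and 5 and at 9.55 and 9.77 in Akita replicates 1 and 3. Akita replicate 3 was the highest array, but Akita replicate 1 lay just under wild type replicate 3, so the groups overlapped. The log2 difference was 0.31 (SE 0.15, 95% interval -0.037 to 0.66, adjusted p = 0.417), a ratio of 1.24. The wild type arrays had an SD of 0.20 (n = 3) and spanned 0.39 log2 units, more than the difference.

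Plin2, the coat found on droplets of nearly all cells and protected from breakdown while lipid is bound, was at 8.62, 8.52 and 8.53 in wild type and at 8.67 and 8.90 in Akita replicates 1 and 3. Both Akita arrays were above all wild type arrays, the first by 0.05. The log2 difference was 0.23 (SE 0.12, 95% interval -0.050 to 0.51, adjusted p = 0.456).

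Plin4, a coat of newly formed droplets that is abundant in fat tissue, was at 9.19, 9.27 and 9.22 in wild type and at 8.99 and 9.11 in Akita replicates 1 and 3. Here both Akita arrays lay under all wild type arrays, with a log2 difference of -0.18 (SE 0.11, 95% interval -0.43 to 0.076, adjusted p = 0.523). Plin4 and Plin5 are neighbours on chromosome 17 in the RefSeq annotation, 1.65 kb apart with 0 genes between them and on the same strand, and their differences had opposite signs.

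Because the coat genes are known as PPAR targets and the neighbours differed in sign, the DNA just upstream of the 3 genes is shown, from RefSeq's GRCm38.p6, in 5′ to 3′ direction on the gene's own strand, which is the minus strand for all 3. The stretches are chr17:56117607-56117798 for Plin5 (192 bases), chr4:86670218-86670309 for Plin2 (92 bases) and chr17:56109949-56110032 for Plin4 (84 bases), each being the part of the 250 bases before a start site that lies outside the annotated gene. Capitals mark the letters AGGTCA on either strand, the half-site that PPAR and related nuclear receptors bind.
Plin5: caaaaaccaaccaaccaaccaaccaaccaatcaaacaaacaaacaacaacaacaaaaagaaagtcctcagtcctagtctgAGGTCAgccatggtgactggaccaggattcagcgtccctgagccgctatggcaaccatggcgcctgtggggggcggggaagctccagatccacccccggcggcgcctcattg
Plin2: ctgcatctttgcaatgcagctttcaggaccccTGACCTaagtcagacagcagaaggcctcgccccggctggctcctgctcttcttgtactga
Plin4: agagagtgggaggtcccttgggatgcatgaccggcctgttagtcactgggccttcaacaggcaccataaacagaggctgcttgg
Over the 250 bases before each start, the letters AGGTCA on either strand were present in 3 of the 11 windows that the table held for 8 of the 10 genes (those of Plin2, Plin5 and Abhd5) and in 14.0% of all 32851 windows of that length. The perfect DR1 element, in which this exact half-site stands repeated in the same direction after any single base, was in 0 of the 11 windows and in 0.0335% of all windows. At so low a share 11 windows can hardly hold it, and looser forms were not sought. The 0 therefore does not show that these genes lack such an element. The letters GTAAACA, to which FoxO factors bind, were present in 2 of the 11 (those of Mgll and Lipe) and in 3.17% of all windows. A match of letters is a description and says nothing of binding.

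The lipases had no shared direction. Pnpla2 encodes adipose triglyceride lipase, which takes the first fatty acid off triglyceride. It was at 11.20, 11.05 and 11.09 in wild type and at 10.93 and 10.87 in Akita replicates 1 and 3. Both Akita arrays were under all wild type arrays and close to each other (SD 0.04, n = 2). The log2 difference was -0.21 (SE 0.11, 95% interval -0.47 to 0.044, adjusted p = 0.449), a ratio of 0.863.

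Lipe encodes hormone-sensitive lipase, which mainly cleaves diglyceride. It was the steadiest of the 10 genes in wild type, at 6.51, 6.54 and 6.54 (SD 0.02, n = 3), and stood at 6.67 and 6.95 in Akita replicates 1 and 3. Both Akita arrays lay above the wild type range, the second by more. The log2 difference of 0.28 (SE 0.12, 95% interval -0.0066 to 0.57) had the smallest unadjusted p of the 10, 0.0543, and an adjusted p of 0.377.

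Mgll, the gene of monoglyceride lipase, which frees the last fatty acid and also degrades the endocannabinoid 2-arachidonoylglycerol, was at 8.33, 8.42 and 8.34 in wild type. In Akita it was at 8.33 in replicate 1, level with the lowest wild type array, and at 8.65 in replicate 3. The log2 difference was 0.13 (SE 0.13, 95% interval -0.18 to 0.43, adjusted p = 0.714), and it was -0.033 without Akita replicate 3.

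The co-activator and the inhibitor of adipose triglyceride lipase both stood lower in Akita on average, with overlapping groups. Abhd5, whose product CGI-58 switches the lipase on, was at 8.07, 8.06 and 8.0 in wild type and at 7.90 and 8.01 in Akita replicates 1 and 3. The groups overlapped, and the log2 difference was -0.088 (SE 0.11, 95% interval -0.34 to 0.16, adjusted p = 0.765).

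G0s2, whose small protein product binds the lipase and blocks it, varied more within the wild type group than any other of the 10 genes, at 7.15, 8.13 and 8.01 in replicates 3, 4 and 5 (SD 0.53, n = 3). The Akita arrays, at 7.69 and 7.34, stood between the lowest wild type array and the others. The log2 difference was -0.25 (SE 0.29, 95% interval -0.92 to 0.42, adjusted p = 0.749), and leaving out 1 wild type array gave values from -0.56 without replicate 3 to -0.065 without replicate 4. It was the only one of the 10 genes with a second probe set, dimmer, at 4.99, 5.21 and 4.96 in wild type and 4.95 and 4.48 in Akita, a difference of -0.34. In that probe set wild type replicate 3 did not stand apart.

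Both triglyceride synthases stood lower in Akita, each in its own way. Dgat2, the synthase that works at the droplet surface and uses newly made fatty acids, was at 11.29, 11.03 and 11.00 in wild type and at 10.88 and 10.75 in Akita replicates 1 and 3. All wild type arrays lay above both Akita arrays, with a log2 difference of -0.29 (SE 0.13, 95% interval -0.60 to 0.015, unadjusted p = 0.0596, adjusted p = 0.389).

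Dgat1, the synthase of the endoplasmic reticulum, had the lowest estimate, -0.33 (SE 0.18, 95% interval -0.74 to 0.087, adjusted p = 0.470). It was at 6.44, 6.47 and 6.29 in wild type, at 5.79 in Akita replicate 1 and at 6.36 in Akita replicate 3. Only the first of the Akita arrays was low, and the second lay inside the wild type range. Without Akita replicate 3 the difference was -0.61 (adjusted p = 0.120), and without Akita replicate 1 it was -0.04 (adjusted p = 0.959).

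Ratios between 2 of the genes on the same array are free of any scaling of the whole array, and 7 such ratios were compared. An exact two-sided permutation test of 2 against 3 arrays cannot give a p below 0.2, so no ratio could pass. Plin5 over Plin4 was higher in both Akita arrays (0.56 and 0.66 in log2 units) than in the wild type arrays (0.37, 0.05 and -0.05), a difference of 0.49 (exact p = 0.2, adjusted over the 7 ratios 0.7). Lipe over Mgll was higher in both too, at -1.66 and -1.70 against -1.82, -1.88 and -1.80, a difference of 0.15 (exact p = 0.2, adjusted 0.7).

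The other ratios overlapped between the groups. Pnpla2 over G0s2, the lipase against its inhibitor, differed by 0.035 (exact p = 1, pooled SD 0.51), and Pnpla2 over Abhd5, the lipase against its co-activator, by -0.13 (exact p = 0.4). Plin5 over Plin2 differed by 0.082 (exact p = 0.6), Dgat1 over Dgat2 by -0.033 (exact p = 1) and Pnpla2 over Dgat1 by 0.11 (exact p = 0.8). In 3 of these the sign depended on the Akita array used. Dgat1 over Dgat2 differed by -0.38 without Akita replicate 3 and by 0.32 without Akita replicate 1, Pnpla2 over Dgat1 by 0.43 and by -0.20, and Pnpla2 over G0s2 by -0.11 and by 0.18. The wild type array left out also turned the sign of Pnpla2 over G0s2, from 0.39 without replicate 3 to -0.18 without replicate 4, and of Dgat1 over Dgat2, which was 0.04 without replicate 4.

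**Figure D3:**
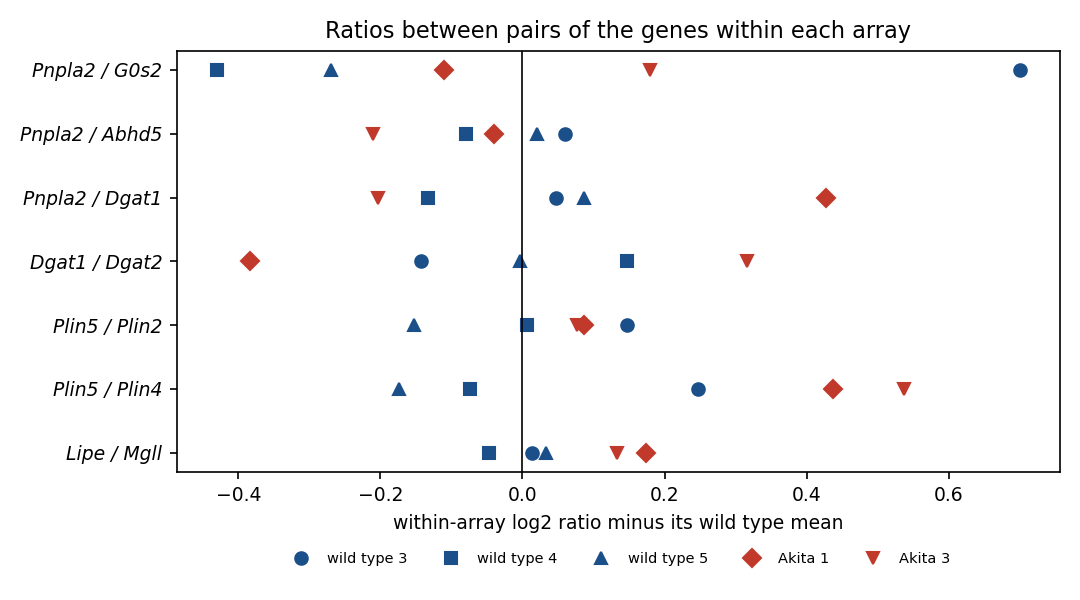
Log2 ratio of 2 genes on the same array minus the wild type mean of that ratio (horizontal axis), for 7 pairs, with blue symbols for wild type and red for Akita arrays. Both Akita arrays lie beyond every wild type array only for Plin5 over Plin4 and Lipe over Mgll.

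The 2 Akita arrays differed from each other in cell type markers, and in bulk RNA fewer cells of a type and less RNA per cell cannot be told apart. Myocyte markers were bright in both groups, as the tissue label says, with 8 of 10 lower in Akita and 0 past the threshold. Of the 10, 7 lay lower without overlap, against 19.9% of all genes tested. The median of the 10 was -0.089, against -0.032 over all genes tested and -0.072 over genes above the 50th percentile of mean signal. Tnni3, a troponin gene, was at 12.79, 12.91 and 12.94 in wild type and at 12.75 and 12.72 in Akita. All 6 atrial markers lay above every wild type array in Akita replicate 3, with a median deviation from the wild type mean of 2.36. In Akita replicate 1, 2 of the 6 lay above the wild type mean and 4 below it, with a median of -0.17. Nppa, the atrial natriuretic peptide gene, was at 12.21 and 13.39 in Akita replicates 1 and 3 against 11.88 ± 0.10 (SD, n = 3), and Bmp10, an atrial growth factor gene, at 5.71 and 10.83 against 4.82 ± 0.31 (SD, n = 3). Sln and Myl7, singled out after their values were seen, lay lower in the first array and higher in the second, at 6.71 and 10.85 for Sln against 7.94 ± 0.20 (SD, n = 3) and at 6.55 and 10.36 for Myl7 against 8.0 ± 0.15 (SD, n = 3). The summed linear signal of the 6, in which Nppa is by far the brightest, was 4447 to 4784 in wild type and 5265 and 16551 in Akita replicates 1 and 3. Fibroblast markers (8 genes) summed to 4791 to 4938 in wild type and to 5138 and 6724 in Akita replicates 1 and 3, with 7 higher in Akita and 5 higher without replicate 3. Macrophage markers lay lower in 5 of 8 and higher in 2, with 0 past the threshold, and summed to 2038 to 2219 in wild type and to 1798 and 2059 in Akita. Cd68, a lysosomal protein gene of macrophages, was at 7.49 ± 0.08 (SD, n = 3) in wild type and at 6.47 and 6.82 in Akita (adjusted p = 0.0773). Cd68 passed the threshold under 1 of 12 alternatives, an intensity trend and robust prior (adjusted p from 0.0204 to 0.350 over the 12). Of 7 endothelial markers 4 lay higher and 3 lower, with 0 past the threshold.

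The differences of the 10 genes were also read with 1 Akita array at a time. Without Akita replicate 3 the differences were 0.20 for Plin5, 0.11 for Plin2, 0.14 for Lipe and -0.18 for Pnpla2; without Akita replicate 1 they were 0.42, 0.34, 0.42 and -0.24.

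Adipocytes also express most of the 10 genes, and most white adipocyte markers lay higher in Akita. Of 16 white adipocyte markers 14 were found and 12 tested, 10 of them higher (8 with the arrays centred on their medians), 2 lower and 0 past the adjusted threshold, with a median of 0.37. Their summed signal was 4500 to 4819 in wild type and 5389 and 6053 in Akita replicates 1 and 3. Fabp4, at 11.59, 11.52 and 11.67 in wild type and at 11.91 in both Akita arrays, was by far the brightest marker. It therefore weighs most in these sums, and which cells its signal came from was not tested. The defining markers Adipoq and Lep were under the filter, at 3.85 ± 0.24 and 3.83 ± 0.41 (SD, n = 3) in wild type and 4.02 ± 0.13 and 4.06 ± 0.09 (SD, n = 2) in Akita. Cidec, a droplet fusion gene of fat cells, was at 4.98 ± 0.14 (SD, n = 3) and 5.76 ± 0.54 (SD, n = 2; adjusted p = 0.219), while Sncg differed by -0.60 (adjusted p = 0.120). Brown adipocyte markers differed in direction, with 4 of 6 higher and 2 lower (3 and 3 with quantile normalization or without Akita replicate 3) and 0 past the threshold. Ucp1, the uncoupling protein of brown fat, was at 5.35 and 6.82 in the Akita arrays against 4.25 ± 0.10 (SD, n = 3; adjusted p = 0.131), while Slc36a2, an amino acid transporter gene, lay lower, at 6.54 and 6.70 against 7.22 ± 0.18 (SD, n = 3; adjusted p = 0.165). The summed signal of the brown adipocyte list was 776 to 847 in wild type, lower in Akita replicate 1 at 688 and higher in Akita replicate 3 at 1011. Cidea and Ppargc1b, with wild type means of 8.32 and 7.98, were the brightest of that list, so Ucp1 weighs little in the wild type sums. In Akita replicate 1 Cidea stood at 8.37 and Ppargc1b at 7.31. The part of any of these cell types in the values of the 10 genes was not tested.

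Further genes of droplet coating, size and budding showed no shared direction: of 16 tested, 6 lay higher and 10 lower, 0 passed, and the median was -0.030. With quantile normalization 9 lay higher and 6 lower, and without Akita replicate 1 these were 10 and 6, with a median of 0.065. The lowest p belonged to Hsd17b11, a droplet-associated dehydrogenase gene, at 7.07, 7.44 and 7.28 in wild type and 8.25 and 8.12 in Akita replicates 1 and 3. Both Akita arrays lay above all wild type arrays, with a log2 difference of 0.92 (SE 0.14), and the adjusted p of 0.0600 was just above the threshold. Bscl2, the gene of seipin, which shapes droplets as they leave the endoplasmic reticulum, stood at 6.85 ± 0.10 (SD, n = 3) and 6.38 ± 0.13 (SD, n = 2; difference -0.47, adjusted p = 0.195). Plin1, the perilipin of fat cells, was dim, at 4.90 ± 0.10 and 5.36 ± 0.16 (difference 0.46, adjusted p = 0.212).

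The steps that lead to triglyceride before the DGAT reaction gave 0 of 15 genes past the threshold, with 6 higher and 9 lower and a median of -0.10 (8 higher and 7 lower with quantile normalization, median 0.0077). Without Akita replicate 1 the tally turned to 11 higher and 4 lower, with a median of 0.043. Agpat1, an acyltransferase of that route, had the lowest p (8.65 ± 0.06 (SD, n = 3) and 8.30 ± 0.02 (SD, n = 2), difference -0.35, adjusted p = 0.242). Gpam, the mitochondrial enzyme that starts the route, differed by 0.14, and Lpin1, a phosphatidate phosphatase gene, by -0.13 (adjusted p = 0.628 and 0.663).

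Of the other hydrolases of neutral lipid and genes of glycerol exit, 0 of 12 passed, with 7 higher and 5 lower (6 and 6 with either other scaling). Ces1d, a carboxylesterase that hydrolyses triglyceride, was at 8.26, 8.16 and 8.10 in wild type and 7.76 and 7.59 in Akita replicates 1 and 3, without overlap (difference -0.50, SE 0.12, adjusted p = 0.167). Abhd6, a further monoglyceride hydrolase gene, differed by -0.48 (adjusted p = 0.313) and Lipa, the lysosomal acid lipase gene, by 0.22 (adjusted p = 0.492).

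Hormonal control of lipolysis, from adenylyl cyclase and protein kinase A to insulin receptor genes, gave 0 of 15 past the threshold, with 5 higher and 10 lower and a median of -0.037. With quantile normalization 7 lay higher and 8 lower, and without Akita replicate 1 these were 9 and 6, with a median of 0.020. The kinase A regulatory subunit gene Prkar2b differed by 0.69 (adjusted p = 0.329; 0.23 without Akita replicate 3), Prkar1a, another such subunit gene, by 0.26 (adjusted p = 0.367) and Prkaa2, a catalytic AMPK subunit gene, by -0.26 (adjusted p = 0.464).

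Most of the listed PPAR, PGC-1 and FoxO regulators lay lower in Akita, and most of the listed PPAR-alpha targets lay higher. Of 12 PPAR, PGC-1 and FoxO regulator genes, 10 lay lower, 1 higher and 1 level, with a median of -0.20 (-0.12 with quantile normalization, -0.07 without Akita replicate 1) and 0 past the threshold. Foxo3 (difference -0.43, adjusted p = 0.215), Rxrb, a PPAR partner receptor gene (-0.38, adjusted p = 0.274), and Nr1h3, the liver X receptor alpha gene (-0.34, adjusted p = 0.275), had the lowest p. The groups overlapped for all PPAR and PGC-1 genes of the list. Ppara differed by -0.13, Ppard by -0.10, Pparg by 0.018, Ppargc1a by -0.15 and Ppargc1b by -0.345. Of 20 PPAR-alpha targets other than the 10 genes, 16 lay higher, 3 lower and 1 level, with a median of 0.15 and 0 past the threshold. Pdk4 differed by 1.18, Ucp3 by 1.26 and Angptl4 by 1.97 (adjusted p = 0.0550, 0.0785 and 0.161), against 0.31 for Plin5 and 0.23 for Plin2. Pdk4 passed the threshold under 4 of 12 alternatives (adjusted p from 0.00371 to 0.222) and Ucp3 under 1 (0.0138 to 0.243). Angptl4 stood at 6.47 and 8.23 in Akita replicates 1 and 3, so its difference was 1.09 without Akita replicate 3 and 2.85 without Akita replicate 1, the only alternative under which it passed (adjusted p = 0.00539).

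**Figure D4:**
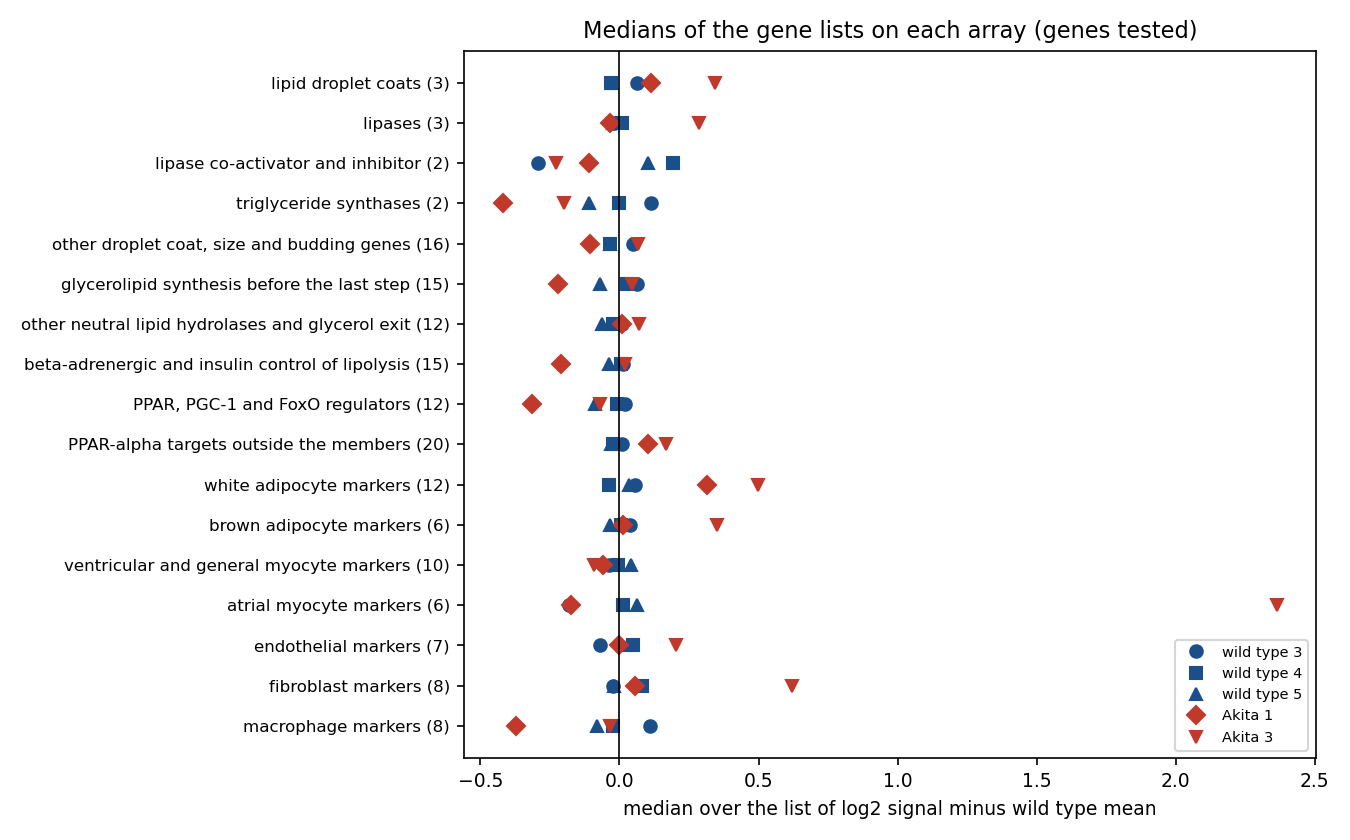
Median over each gene list (number of genes tested in brackets) of log2 signal minus the wild type mean, per array, with blue symbols for wild type and red for Akita. In Akita replicates 1 and 3 the droplet coats lie at 0.11 and 0.34, which are the values of Plin2, the middle of 3 genes. Plin5 lies at 0.20 and 0.42, and Plin4 at -0.24 and -0.12. The lipases lie at -0.033 and 0.29, the co-activator and inhibitor at -0.11 and -0.23, and the synthases at -0.42 and -0.20. White adipocyte markers lie at 0.31 and 0.50, and atrial markers at -0.17 and 2.36.

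The genes closest in profile to the 2 members of lowest p were sought among 13823 other genes, by the root mean square distance between deviations from the own wild type mean over the 5 arrays. For Lipe these were Sh3bp5, Plat, Pgm5 and Eef1a1, at distances of 0.0320 to 0.0371 log2 units. For Dgat2 they were Pef1, Sgf29, Emc4 and Slc25a38, at 0.0290 to 0.0322. All 8 were compared on the same 5 arrays as the members, so any feature of an array is shared.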

How the data were processed

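The table deposited by the authors holds a log2 signal for each of 41345 probe sets on each array; the base was read from their range (1.27 to 13.66). Per the submitters' processing notes, the authors used Affymetrix Expression Console; the version and the summarisation and normalization steps are not stated in the labels. The platform annotation gave 23521 probe sets exactly 1 symbol, 1814 several, and did not list 16010. Genes whose mean signal was under log2 4.06, the 30th percentile, were filtered out. The group difference (Akita minus wild type) was fitted over all 5 arrays by limma 3.58.1, run in R 4.3.3, with its moderated two-sided test and Benjamini-Hochberg adjustment over 15528 genes at 0.05. The number of arrays limits the precision. The fit was tested on simulated data.

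Lists from textbook knowledge were described by counts and medians. Named were the 10 genes, genes from among the 3 of lowest p per list and the profile neighbours, with Adipoq and Lep as defining fat cell markers. Sln, Myl7, Fabp4, Cidea and the PPAR and PGC-1 genes were named outside this rule, after their values were seen. The genes and lists were chosen with earlier results of these data known. Ratios used exact permutation tests (SciPy 1.17.1). Promoter windows came from RefSeq tables; 8 of the 10 genes matched. Alternatives were no or a stricter filter (50th percentile), quantile normalization again, median centring, averaged probe sets, a trend with robust prior, array weights and each array left out. The labels name no batch.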

Additional observations from a re-analysis of the deposited data

How the results depend on the processing

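The count of 0 of the 10 genes past the adjusted threshold held under all 12 alternatives, where the lowest adjusted p was 0.120 (Dgat1 without Akita replicate 3). Over the 10 genes and these alternatives, 119 values kept their direction and 1 did not: Mgll, at 0.13, stood at -0.033 without Akita replicate 3 and at 0.29 without Akita replicate 1. Without Akita replicate 3, 3 genes lay higher and 7 lower. Genes called over all genes numbered 51, and 86 with no filter, 32 with quantile normalization again, 197 with an intensity trend and robust prior, 28 with array weights, and 9 to 44 with 1 array left out; the cause was not tested. The median over the 10 genes, -0.13, was -0.066 with quantile normalization again and -0.12 to -0.037 with 1 array left out. The alternatives for list genes were chosen after seeing the data. Among these, Dkk3, an atrial marker, went from 1.10 to -0.17 without Akita replicate 3 and to 2.37 without Akita replicate 1, and Hsd17b11 passed the threshold under 2 of 12 alternatives (adjusted p 0.0124 to 0.240). Without Akita replicate 1, 5 of 6 atrial, 2 of 12 white adipocyte and 1 of 6 brown adipocyte markers passed the threshold, as did Angptl4 (adjusted p = 0.00539). No paired analysis was made, because the labels do not pair any wild type array with an Akita array. Where 1 Akita array was left, its spread was taken from the wild type arrays. The widest interval, that of G0s2, reached -0.92 on the log2 scale.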
